A study of Mus musculus with 89 samples.

Results

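Loss of the orphan nuclear receptor Esrrb was followed in mouse embryonic stem cells (ESCs) cultured in medium with foetal calf serum and leukaemia inhibitory factor (FCS/LIF), by setting RNA-seq of cells without Esrrb (-E) against cells with Esrrb and Nr5a2 (+E+N). The comparison took in 4 of the 89 samples of the series, and of its 20 RNA-seq samples, namely 2 libraries of each group. All 4 were EKOiE cells, ESCs that lack the endogenous Esrrb gene and carry a doxycycline (Dox) inducible Esrrb transgene, so that the controls also lack the endogenous gene. The +E+N cells were kept with Dox at 1 µg/ml, and the -E cells were grown without Dox for 2 days, both with Nr5a2 intact. Esrrb in the controls was therefore made from a transgene in a derived line, and Dox differed between the groups along with Esrrb. An effect of Dox itself cannot be told apart from that of Esrrb loss for any gene or list described here. In 2 further pairs of groups the same Dox withdrawal was measured in other libraries: EKOiE NrKO cells, clones in which both Nr5a2 alleles are disrupted, with (-N) and without (-E-N) Dox in FCS/LIF, and EKOiE cells in 2i/LIF, a medium with inhibitors of Mek and Gsk3.

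Esrrb belongs to the oestrogen-related receptors, which bind DNA without a known natural ligand at a nuclear receptor half-site extended at its 5′ end, and which in other tissues are best known for control of energy metabolism. In ESCs Esrrb sits in the network of transcription factors (TFs) that keeps naive pluripotency, downstream of Gsk3 inhibition. Nr5a2, another orphan receptor, reads nearly the same DNA sequence.

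The 4 libraries held 38853062 to 42980094 estimated counts, their 10 most abundant genes took 5.16% to 5.50% of the counts, and mitochondrially encoded genes took 2.12% to 2.50%. Replicates of a group differed by more than counting noise (chi-square per degree of freedom of 13.3 in +E+N and 4.42 in -E). Levels are given as TPM, a share of all transcripts that is scaled for transcript length and library size, for replicate 1 and then replicate 2. Differences are log2 fold changes, -E minus +E+N, with their standard error (SE), from edgeR's quasi-likelihood test on counts, with p-values adjusted by Benjamini-Hochberg over all 15636 genes tested. Genes at an adjusted p under 0.01 and a fold change over 1.5 are described as called, risen or fallen. With 2 libraries a group, an exact permutation test of a single gene could not give a p below 0.333, so each call rests on the spread estimated across genes.

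Esrrb (ENSMUSG00000021255, mm10 chr12:86361117-86521628) was at 163 and 249 TPM in +E+N and 40.1 and 38.9 TPM in -E, a log2 fold change of -2.18 ± 0.13 (SE, adjusted p = 2.75e-05). Every -E library lay below every +E+N library, as the labels have it. Gene-level values do not separate reads of the transgene from those of the knocked-out locus. The defining ESC genes Pou5f1, at 1403 and 1352 TPM, and Sox2, at 202 and 176 TPM, were well expressed in the -E libraries. In bulk RNA, fewer cells expressing a gene and less RNA per cell cannot be told apart for any gene described here.

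Of the genes tested, 901 (5.76%) were called, 505 (3.23%) higher and 396 (2.53%) lower in -E, and the median log2 fold change over all genes was 0.00 to 2 decimals (-0.0025). The CPM values of the groups did not overlap for any of the 901, but they did not overlap for 63.2% of all genes tested either. Where groups of a called gene are said below not to overlap, this describes the values and adds no support to the call. With all 20 libraries of both media in 1 fit, 196 were called higher and 249 lower, so that falls outnumbered rises there. The number of calls depended on single libraries, at 314 without replicate 2 of -E, 436 without replicate 1 of -E and 540 without replicate 1 of +E+N. Changes were moderate in size. The median fold was 2.17 among genes that rose and 2.11 among genes that fell, and 63 rose and 51 fell by more than 4-fold. Genes that rose started low, with a median of 1.85 TPM in +E+N, and 183 of the 505 were under 1 TPM there. Genes that fell started at a median of 10.5 TPM, against 8.17 TPM over all genes. Among the 1272 genes above 100 TPM in +E+N, 3 rose and 42 fell. Of the 173 genes under 0.1 TPM in +E+N, 35 rose and 0 fell. A gene scarce in +E+N could pass the count filter through another state, and the +E+N level is itself part of the fold change. The contrast in starting level between rises and falls was therefore set in part by the filter and the sorting.

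**Figure D1:**
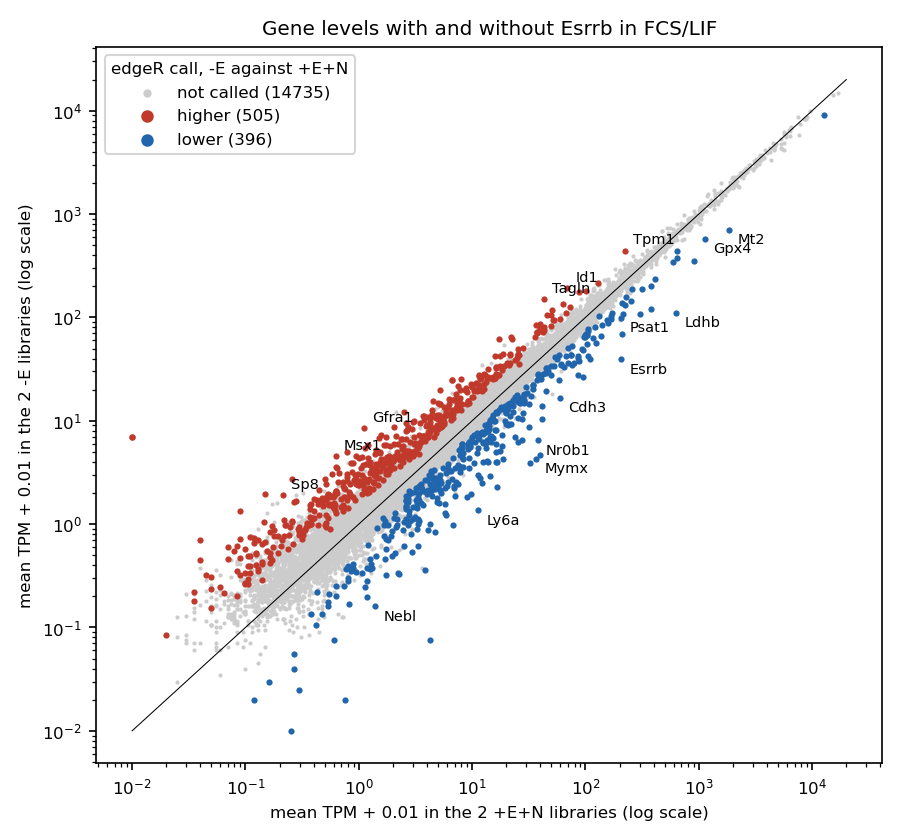
Mean TPM + 0.01 of each tested gene in +E+N (x axis) and -E (y axis), both on log scales, with the diagonal marking equal levels. Red points are the 505 genes called higher and blue points the 396 called lower, and the red points lie mostly at the low end of the axis while blue points reach its top.

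The 10 largest falls, of called genes whose counts averaged 100 or more over the 4 libraries, held genes of membrane fusion, adhesion, transport and metabolism beside TFs. These genes, and the 10 largest rises below, were also picked for no overlap in CPM between the groups. Mymx, which encodes a micropeptide of myoblast fusion, was at 42.4 and 31.4 TPM in +E+N and 4.82 and 3.77 TPM in -E, a log2 fold change of -3.41 ± 0.26 (SE, adjusted p = 6.87e-05). Jam2, a junctional adhesion molecule, was at 37.5 and 42.1 TPM in +E+N and 4.73 and 4.55 TPM in -E, and was 10.0-fold lower (log2 fold change -3.32 ± 0.08, adjusted p = 8.22e-08). For both genes the groups lay far apart. Ldhb, the lactate dehydrogenase subunit of oxidative tissues, went from 622 and 648 TPM to 112 and 109.5 TPM (log2 fold change -2.66 ± 0.06, adjusted p = 8.22e-08). Nebl, a nebulin-related actin binding protein, was the second largest fall at -3.36 ± 0.26, from 1.51 and 1.25 TPM to 0.06 and 0.24 TPM. The stress-inducible chromatin protein gene Nupr1 went from 33.7 and 30.4 TPM to 3.65 and 4.06 TPM, and Ly6a, which encodes the surface antigen Sca-1, from 10.4 and 12.2 TPM to 1.14 and 1.58 TPM. Of the rest, Slc47a1 (-2.97 ± 0.22) encodes an organic cation exporter, St8sia1 (-2.94 ± 0.15) makes the ganglioside GD3, and Nr0b1 (-2.66 ± 0.14) is a nuclear receptor without a DNA-binding domain. The adjusted p-values of these 3 ran from 1.15e-05 to 6.87e-05.

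Among called genes, the largest loss of TPM was that of the mitochondrial gene mt-Nd3, followed by Mt2, Gpx4, Mt1 and Ldhb. Mt1 and Mt2 are metallothioneins, which bind zinc and copper. Mt2 was at 2076 and 1646 TPM in +E+N and 760.5 and 656 TPM in -E (log2 fold change -1.52 ± 0.15, adjusted p = 0.000223), and Mt1 was at 992 and 806 TPM in +E+N and 377 and 329 TPM in -E (-1.47 ± 0.12, adjusted p = 8.55e-05). Gpx4, the peroxidase that reduces lipid hydroperoxides, went from 1191 and 1066 TPM to 583 and 573 TPM, a log2 fold change of -1.08 ± 0.10 (adjusted p = 0.000206). The groups did not overlap in these 3.

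Among called genes that averaged 100 counts or more, the 10 largest rises were developmental regulators and surface or secreted proteins that were scarce in +E+N. Sp8, a zinc finger TF of limb and neural patterning, was at 0.21 and 0.2 TPM in +E+N and 1.73 and 2.07 TPM in -E, the largest of these rises (log2 fold change 2.97 ± 0.20, adjusted p = 3.84e-05). Msx1, a homeobox TF induced by Bmp signals, was at 0.51 and 0.72 TPM in +E+N and 4.17 and 4.85 TPM in -E (2.75 ± 0.20, adjusted p = 6.37e-05). The groups were several-fold apart in both. Gfra1, the co-receptor of the neurotrophic factor Gdnf, rose from 0.85 and 1.35 TPM to 8.11 and 8.83 TPM (2.70 ± 0.23, adjusted p = 0.000125), and Has2, a hyaluronan synthase, from 0.68 and 0.86 TPM to 4.57 and 5.38 TPM (2.56 ± 0.19, adjusted p = 6.15e-05). The leukotriene receptor gene Cysltr1 (2.72 ± 0.16), the alarmin Il33 (2.39 ± 0.26), the ligand gene Wnt3 (2.16 ± 0.26), the homeobox gene Meis2 (2.15 ± 0.21), Btbd17 (2.09 ± 0.21) and Gm12794 (2.15 ± 0.26) completed the 10. Gm12794 belongs to a multicopy gene family, among which reads may have been split, so its value is uncertain. Among called genes, those with the largest gains of TPM were Tpm1, Id1, Tagln, Cdkn1c and Pim2, described with their groups below.

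**Figure D2:**
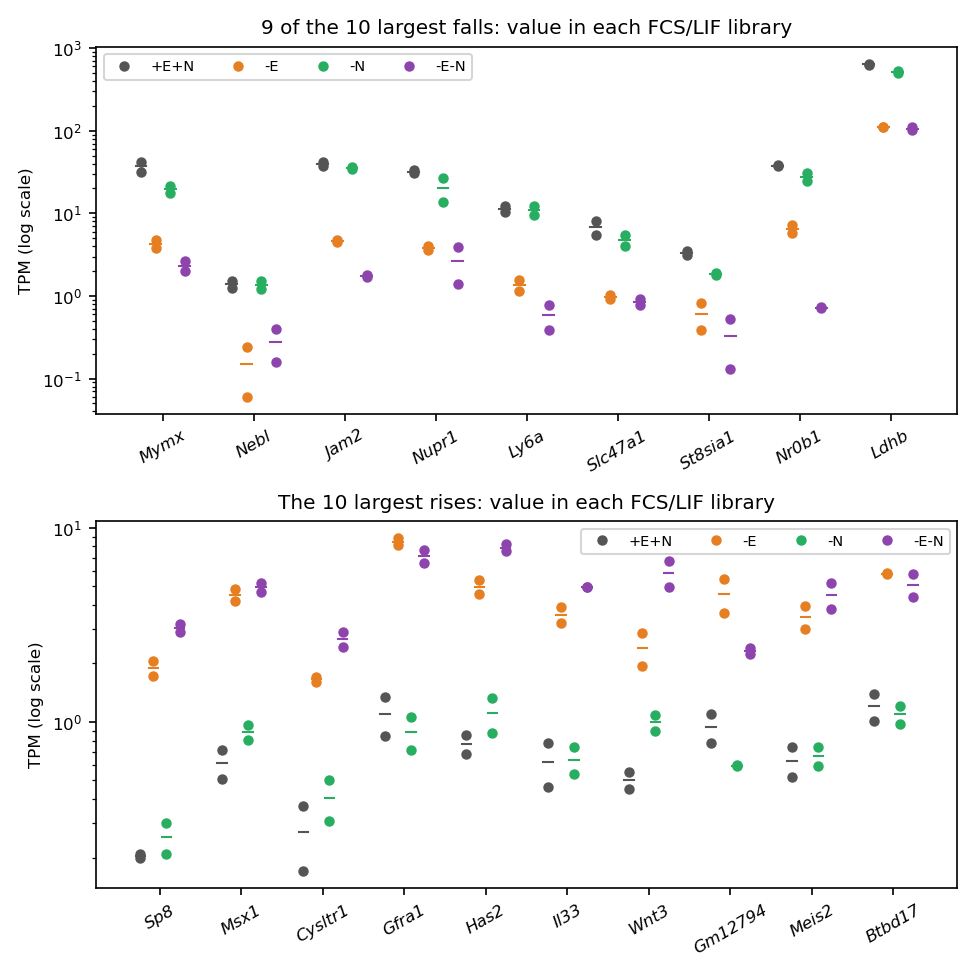
TPM on a log scale in each of the 8 FCS/LIF libraries for 9 of the 10 largest falls (top) and the 10 largest rises (bottom), with short bars at group means of 2 libraries. The 19 genes were picked for no overlap in CPM between -E and +E+N, so the gap between those groups was set by the choice. The -E-N points lie apart from the -N points on the same side.

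Gene groups are described by how many members were tested and called, beside 5.76% called among all genes and an all-gene median of 0.00, with no set test, since the lists were written with earlier results of these data known. Lists overlap, so a gene can count in several. Where members at an unadjusted p under 0.05 are counted, 5275 of all 15636 genes tested passed that limit, in either direction.

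**Figure D3:**
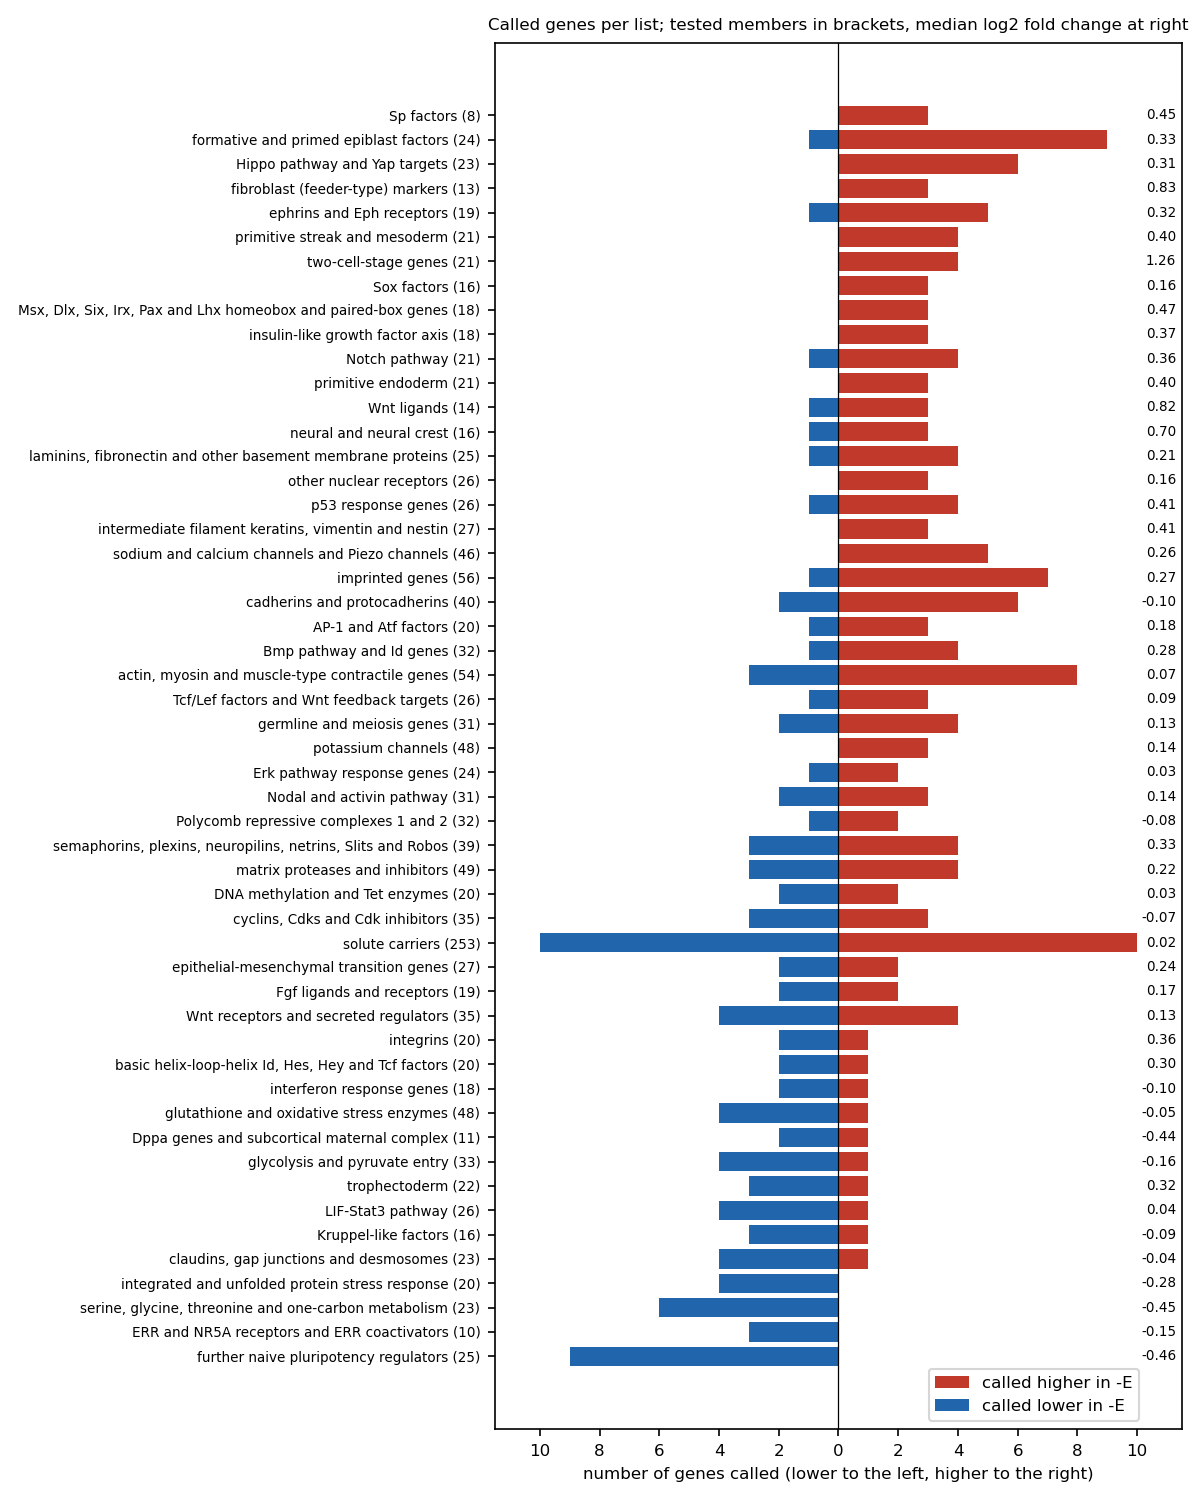
Number of genes called lower (blue, left) and higher (red, right) in -E for each list with at least 3 called genes, with the tested members in brackets and the median log2 fold change over them at the right. The further naive pluripotency regulators (9 called lower) stand at the bottom, and the Sp factors (3 higher) and the formative and primed epiblast factors (9 higher, 1 lower) at the top.

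Among oestrogen-related and Nr5a receptors and their coactivators, 10 of 14 were tested and 3 fell, namely Esrrb, Nr5a2 and Nr0b1. Nr5a2 went from 13.7 and 12.9 TPM to 7.58 and 7.83 TPM, with no overlap (log2 fold change -0.98 ± 0.09, adjusted p = 0.000133), and Nr0b1, a known partner of both receptors, from 38.6 and 37.2 TPM to 7.17 and 5.85 TPM (-2.66 ± 0.14, adjusted p = 1.15e-05). The related receptor Esrra, which shares Esrrb's DNA sequence, stood at 13.1 and 13.6 TPM in +E+N and 12.5 and 15.2 TPM in -E (log2 fold change -0.24 ± 0.10, adjusted p = 0.147) and was not called. The coactivator Ncoa3 was likewise below the fold limit (-0.27 ± 0.07, adjusted p = 0.0284). Among 26 other nuclear receptors tested, 3 were called and all rose, among them the glucocorticoid receptor Nr3c1 (0.81 ± 0.14) and the thyroid hormone receptor Thra (0.59 ± 0.11).

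Beyond the usual naive markers, 25 further naive pluripotency regulators were tested and 9 were called, all lower, with a median log2 fold change of -0.46 over the list. Tcl1, a coactivator of Akt kinase, was at 42.7 and 39.8 TPM in +E+N and 10.9 and 9.8 TPM in -E (-2.16 ± 0.11, adjusted p = 1.12e-05). Mybl2, a cell cycle TF abundant in ESCs, was at 216 and 212 TPM in +E+N and 111 and 104 TPM in -E (-1.10 ± 0.06, adjusted p = 2.45e-05). Klf2, a Kruppel-like naive factor, was at 96.8 and 91.1 TPM in +E+N and 52.4 and 47.1 TPM in -E (-1.04 ± 0.08, adjusted p = 5.91e-05). No -E library reached a +E+N library in these 3. Tet2, which oxidises 5-methylcytosine, went from 13.8 and 12.9 TPM to 6.03 and 4.9 TPM (-1.30 ± 0.08), and Fgf4, the growth factor that starts exit from the naive state, from 42 and 36.9 TPM to 27.4 and 25.1 TPM (-0.71 ± 0.12, adjusted p = 0.00346). Klf5 (-0.46 ± 0.06, adjusted p = 0.00125) and Dppa3 (-0.44 ± 0.11, adjusted p = 0.0217) were not called, nor was Stat3, at 27.8 and 26.5 TPM in +E+N and 29.5 and 30.4 TPM in -E. The median log2 fold change of the Dppa genes and the subcortical maternal complex was -0.44 over 11 tested, with Khdc3 (-2.41 ± 0.28) and Nlrp4f (-1.70 ± 0.24) lower and Nlrp9b (1.30 ± 0.18) higher.

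Genes of the formative and primed epiblast, the states that follow the naive one, had 9 of 24 tested called higher, 1 lower (Etv4, -0.84 ± 0.15) and 14 not called, with a median of 0.33 and 8 log2 fold changes below 0. Fgf5, the classical marker of the postimplantation epiblast, was at 1.27 and 1.85 TPM in +E+N and 6.95 and 7.67 TPM in -E, a log2 fold change of 2.09 ± 0.14 (adjusted p = 3.71e-05). Pou3f1 (Oct6) was at 14.8 and 17.2 TPM in +E+N and 42.1 and 42.6 TPM in -E (1.29 ± 0.10, adjusted p = 6.49e-05). In both genes the lower -E value was more than 2-fold the higher +E+N value. Sox3 (1.98 ± 0.17), Sall2 (1.35 ± 0.11) and Cdh2 (1.07 ± 0.11), which encodes N-cadherin, also rose. Among genes not called, Otx2 was at 25.6 and 31 TPM in +E+N and 25.9 and 24.7 TPM in -E (-0.29 ± 0.12, adjusted p = 0.113), and Dnmt3a, a de novo DNA methyltransferase, had a log2 fold change of -0.42 ± 0.05, under the fold limit. Dnmt3b, the other de novo enzyme, went from 184 and 182 TPM to 295 and 296 TPM, and at 0.58 ± 0.05 lay just under that limit. Dnmt3b was called by DESeq2, with DESeq2 size factors, with limma and in 5 of the 8 fits that left out 1 library. Eomes (0.59 ± 0.16, adjusted p = 0.0351) and Foxd3 (-0.48 ± 0.13, adjusted p = 0.0351) were not called.

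Markers of germ layers and extraembryonic lineages were read as lists. Of 30 primitive streak and mesoderm genes, 21 were tested and 4 were called, all higher, with a median of 0.40, and their summed level went from 28.7 and 31.6 TPM in +E+N to 43.9 and 47.2 TPM in -E. Wnt3 rose from 0.45 and 0.55 TPM to 1.95 and 2.88 TPM and Gata2 from 8.06 and 7.27 TPM to 13.6 and 13.8 TPM (0.96 ± 0.19, adjusted p = 0.00857), while the defining streak gene Brachyury, listed as T, was at 0.34 and 0.38 TPM in +E+N and 1.21 and 1.49 TPM in -E (adjusted p = 0.0171) and was not called. T was called when the replicate number was added to the fit as a block, at a log2 fold change of 1.36. Of 30 neural and neural crest genes, 16 were tested, 3 rose (Msx1, Nes and Sox11) and Tubb3 fell. The median of that list was 0.70, with 13 log2 fold changes above 0 and 3 below. Nes, which encodes the intermediate filament nestin, was at 7.29 and 7.84 TPM in +E+N and 21.1 and 22.5 TPM in -E (1.41 ± 0.08, adjusted p = 2.49e-05), whereas the list summed to 100.0 and 104 TPM in +E+N and 92 and 99 TPM in -E, and the neural TFs Sox1 (0.22 ± 0.15) and Pax6 (-0.01 ± 0.14) were not called. All 22 trophectoderm genes were tested, with Gata3 higher (1.32 ± 0.16) and Tfap2a, Ascl2 and Wnt7b lower, and Cdx2, which defines that lineage, was at 0.85 and 1.22 TPM in +E+N and 1.49 and 1.93 TPM in -E and was not called. That list summed to 578 and 694 TPM in +E+N and 775 and 1047 TPM in -E. Of 24 primitive endoderm genes 21 were tested and Dab2 (1.42 ± 0.10), Cubn (1.35 ± 0.16) and Lrp2 (0.61 ± 0.08), which form an endocytic receptor complex with its adaptor, rose, the list summing to 793 and 798 TPM in +E+N and 931 and 969 TPM in -E. The lineage TFs Gata4 (1.09 and 1.58 TPM in +E+N and 1.76 and 1.68 TPM in -E) and Gata6 (1.39 and 2.67 TPM in +E+N and 1.91 and 1.51 TPM in -E) were not called. The part of other cell types in these results was not tested.

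Among TF families, calls were spread over single members. Of 16 Kruppel-like factors tested, 3 fell and Klf6 rose (0.62 ± 0.08, adjusted p = 0.00143). Klf15, a regulator of amino acid and lipid metabolism, fell from 6.34 and 7.36 TPM to 2.36 and 2.29 TPM (-1.73 ± 0.12, adjusted p = 4.73e-05). Of 8 Sp factors, Sp8, Sp5 and Sp6 rose; Sp5, a target of Wnt signalling, was at 0.83 and 0.6 TPM in +E+N and 2.22 and 2.91 TPM in -E (1.72 ± 0.22, adjusted p = 0.00122). Of 16 Sox factors, Sox3, Sox6 and Sox11 rose. Of 29 Fox factors, Foxd4 alone was called, at 1.03 and 0.72 TPM in -E. Both called Gata factors, Gata2 and Gata3, rose. Among 18 homeobox and paired-box genes of the Msx, Dlx, Irx, Pax and related families, Msx1, Irx5 (2.19 ± 0.26) and Dlx6 rose, the last from at most 0.06 TPM. Of 20 AP-1 and Atf factors, 3 rose, Jun (1.11 ± 0.08) and Fosl2 (0.97 ± 0.10) among them, and Atf4 fell. Of 39 Hox genes 5 were tested and edgeR called none, with 2 members higher and 0 lower at an unadjusted p under 0.05, and neither DESeq2 nor limma called any.

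Wnt signalling acts through secreted ligands, Frizzled receptors and Tcf/Lef factors. Of 14 Wnt ligands tested, 3 rose and Wnt7b fell (-0.67 ± 0.13), with a median of 0.82. Wnt3 was described above, Wnt8a rose from 0.7 and 0.86 TPM to 2.75 and 3 TPM (1.76 ± 0.19, adjusted p = 0.000402) and Wnt4 from 0.43 and 0.57 TPM to 1.26 and 1.17 TPM (1.15 ± 0.19). Among 35 receptors and secreted regulators, 4 rose and 4 fell. Wls, the carrier needed for Wnt secretion, was at 1.23 and 1.56 TPM in +E+N and 4.81 and 5.62 TPM in -E (1.75 ± 0.13, adjusted p = 7.17e-05). Notum, an enzyme that inactivates Wnt ligands and is itself a Wnt target, was at 27.8 and 27.1 TPM in +E+N and 10.8 and 9.91 TPM in -E (-1.71 ± 0.15, adjusted p = 0.000126). The groups did not overlap for either. Fzd1, Fzd2 and Fzd6 rose while Fzd5, Porcn and Rspo2 fell, Rspo2 from 0.7 and 0.49 TPM to 0.09 and 0.04 TPM. Among 26 Tcf/Lef factors and feedback targets, Sp8, Sp5 and Lef1 (0.65 ± 0.09) rose and Notum fell, while Axin2, the most used readout of the pathway, was at 3.29 and 3.31 TPM in +E+N and 4.53 and 5.79 TPM in -E (adjusted p = 0.0344). Axin2 was not called by edgeR but was called by DESeq2, at a log2 fold change of 0.59.

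In the Tgf-beta family, Id1, a target of Bmp signalling that blocks basic helix-loop-helix factors, was at 72.6 and 65.9 TPM in +E+N and 181 and 203 TPM in -E (1.35 ± 0.10, adjusted p = 5.49e-05), and the groups were more than 2-fold apart. Of 32 Bmp pathway and Id genes, 4 rose (Msx1, Bmp2, the antagonist Grem1 and Id1) and 1 fell. Bmp4, a main Bmp ligand of ESCs, fell from 5.46 and 4.92 TPM to 2.92 and 3.06 TPM (-0.96 ± 0.17, adjusted p = 0.0051), and Bmp2 was low in -E too, at 0.31 and 0.31 TPM. Of 31 Nodal and activin genes, 3 rose, among them the activin antagonist Fst (1.40 ± 0.15, adjusted p = 0.000448) and the Smad corepressor Skil (0.63 ± 0.06), and Inhbb, which encodes the activin B chain, fell from 3.25 and 2.64 TPM to 0.55 and 0.51 TPM (-2.59 ± 0.25, adjusted p = 0.00021) with the proprotein convertase gene Pcsk6 (-1.70 ± 0.13).

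Fgf and Erk genes were split. Of 19 Fgf ligands and receptors tested, Fgf5 and Fgf13 rose and Fgf4 and Fgf17 fell. The Erk response list had 2 rises, both phosphatases of the Dusp family, Dusp5 (0.96 ± 0.11) and Dusp6 (0.74 ± 0.11), and 1 fall, Etv4, of 24 tested, with a median of 0.03. In the LIF-Stat3 pathway 4 of 26 fell, with the targets Klf4 and Tfcp2l1, the atypical IkB gene Bcl3 (-0.64 ± 0.13) and the receptor gene Lifr (-0.87 ± 0.07), for which the counts of the groups stood apart although TPM overlapped. The kinase gene Pim2 rose from 116 and 139.9 TPM to 209 and 222 TPM (0.65 ± 0.10, adjusted p = 0.00291), and Socs3, the usual feedback target of Stat3, was at 50.1 and 62.7 TPM in +E+N and 41.4 and 42.6 TPM in -E (adjusted p = 0.01).

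Of 21 Notch pathway genes, Notch2 (0.68 ± 0.06), Notch3 (0.74 ± 0.07), Dll4 and Dlk1 (1.42 ± 0.13) rose and Notch4 (-1.27 ± 0.19) fell. The Hedgehog list showed opposite calls in its 2 called members of 14, the TFs Gli2 and Gli3. Gli2 was at 9.96 and 10.8 TPM in +E+N and 3.98 and 3.86 TPM in -E (-1.59 ± 0.10, adjusted p = 3.62e-05), and Gli3 was at 2.08 and 2.58 TPM in +E+N and 4.29 and 4.63 TPM in -E (0.77 ± 0.11, adjusted p = 0.00206). Of 18 insulin-like growth factor genes, Igfbp3 (1.00 ± 0.08), Irs2 (0.95 ± 0.12) and Irs4 (1.32 ± 0.18) rose. In the Hippo pathway and its Yap targets, 6 of 23 were called, all higher. Ccn2 (Ctgf) was at 22.9 and 21.3 TPM in +E+N and 60.4 and 69.3 TPM in -E (1.36 ± 0.10, adjusted p = 5.24e-05) and Ccn1 (Cyr61), the other standard Yap target, at 22.7 and 22.5 TPM in +E+N and 56.8 and 67.1 TPM in -E (1.33 ± 0.09, adjusted p = 4.22e-05). The groups were more than 2-fold apart for both, and the remaining 4 were Amot (1.29 ± 0.11), Amotl2, Tead3 (0.93 ± 0.10) and Vgll3 (0.92 ± 0.11).

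Actin and muscle-type contractile genes gave 8 rises and 3 falls among 54 tested, with a median of 0.07. Those that rose included smooth muscle, cardiac and skeletal types. Tagln (transgelin) was at 41.7 and 44.2 TPM in +E+N and 132 and 168 TPM in -E (1.66 ± 0.10, adjusted p = 2.51e-05), Tpm1 (tropomyosin) at 221 and 226 TPM in +E+N and 412 and 474 TPM in -E (0.89 ± 0.10, adjusted p = 0.000434) and Cnn1 (calponin) at 4.86 and 5.61 TPM in +E+N and 16.7 and 22.6 TPM in -E (1.85 ± 0.12, adjusted p = 3.62e-05). The -E libraries were above the +E+N libraries in all 3. Acta2, smooth muscle actin, rose from 11.6 and 11.4 TPM to 24.5 and 30.5 TPM, and Actc1, cardiac actin, rose by 2.11 ± 0.34 from under 1 TPM. The falls were Mymx, Nebl and Myom2 (-2.68 ± 0.23), the last a sarcomeric M-band protein gene. Since Tagln and Acta2 also mark fibroblasts, the fibroblast list was read beside them. Of 16 such markers 13 were tested and 3 rose (Tagln, Acta2 and Fbn1). The median log2 fold change over the 13 was 0.83, with 12 above 0 and 1 below. The summed level of the list went from 61.6 and 65 TPM to 167 and 211 TPM. Without Tagln and Acta2 the sum went from 8.32 and 9.43 TPM to 11.25 and 12.6 TPM. The defining fibroblast collagens Col1a1 (0.45 and 0.47 TPM in -E), Col1a2 (0.21 and 0.2 TPM) and Col3a1 (0.1 and 0.32 TPM) were under 1 TPM in -E and were not called. The missing call of Col1a2 does not mean an unchanged level. With either -N library left out of the fit, the log2 fold change of Col1a2 was 1.53, higher in -E. The part of such cells in the result was not tested.

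At the cell surface, 5 ephrins and Eph receptors of 19 rose and Epha4 fell. Epha1 went from 2.67 and 2.58 TPM to 9.28 and 9.69 TPM (1.75 ± 0.09, adjusted p = 1.11e-05), Efna5 (1.62 ± 0.27), Epha8 (1.34 ± 0.21), Efnb1 (1.06 ± 0.21) and Efnb2 (0.97 ± 0.09) rose too, and Epha4 was at 10.9 and 12.5 TPM in +E+N and 2.82 and 2.72 TPM in -E (-2.11 ± 0.07, adjusted p = 9.83e-07). Among 39 guidance genes, Sema3c (1.48 ± 0.15), Sema3e (1.46 ± 0.09), Sema6a (1.63 ± 0.18) and Unc5b rose and Ntn1 (-2.42 ± 0.19), Nrp2 (-1.16 ± 0.12) and Sema6c fell. Of 40 cadherins and protocadherins, 6 rose, of which N-cadherin (Cdh2) and Pcdh1 were above 1 TPM in -E, and Cdh3, P-cadherin, fell from 56.7 and 62.8 TPM to 16.7 and 16.7 TPM (-1.96 ± 0.08, adjusted p = 4.54e-06). E-cadherin (Cdh1) was at 124 and 129 TPM in +E+N and 155 and 157 TPM in -E and was not called. Epithelial-mesenchymal transition genes gave 2 rises and 2 falls among 27, with Zeb1 lower (-1.14 ± 0.21) and Snai1 not called (0.22 ± 0.17). Of 23 claudin, gap junction and desmosome genes 4 fell, among them the connexin genes Gjb5 (-1.09 ± 0.16) and Gjc1, the latter from 29.1 and 34.1 TPM to 7.97 and 9.27 TPM (-1.70 ± 0.08, adjusted p = 1.11e-05), while Cldn6 rose (0.59 ± 0.08).

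In the extracellular matrix, 2 of 34 collagens rose, Col2a1 (0.97 ± 0.10) and Col4a6, the latter at under 0.1 TPM. Of 25 laminins and other basement membrane genes, the thrombospondin Thbs1 rose from 3.22 and 2.84 TPM to 9.52 and 10.2 TPM (1.62 ± 0.08, adjusted p = 1.05e-05), with Efemp1 (2.04 ± 0.23), Thbs4 and Lamb3, and Nid1 fell (-0.78 ± 0.12). Matrix proteases gave 4 rises, Mmp25 among them (1.87 ± 0.12, adjusted p = 3.72e-05), and 3 falls, Adamts14 among them (-1.38 ± 0.18), among 49. Of 26 glypican, syndecan and heparan sulphate genes, Sulf1, a sulphatase that edits heparan sulphate, rose from 24.9 and 26.6 TPM to 41.8 and 44.5 TPM (0.74 ± 0.09).

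Membrane transport genes were called at about the rate of all genes, with 20 of 253 solute carriers called (7.91%), 10 in each direction, and a median of 0.02. The falls included Slc29a3, a nucleoside transporter of lysosomes, from 11.8 and 12.5 TPM to 2.47 and 2.46 TPM (-2.45 ± 0.10, adjusted p = 4.02e-06), and the amino acid transporters Slc7a5 (-0.70 ± 0.07), Slc1a5 (-1.03 ± 0.10) and Slc7a1 (-1.47 ± 0.17). Slc7a5 was at 101 and 91.3 TPM in +E+N and 63.6 and 65.2 TPM in -E, with no overlap. Of 46 sodium, calcium and Piezo channels, 5 were called, all higher, among them the touch channel Piezo2 at 0.56 and 0.81 TPM in -E.

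Because oestrogen-related receptors are known for mitochondrial genes, the respiratory chain was counted in full. Of 82 nuclear-encoded subunits of complexes I to IV and ATP synthase edgeR called 0, with 36 lower and 2 higher at an unadjusted p under 0.05, and neither DESeq2 nor limma called any. Over all 15636 genes tested, 5275 were at an unadjusted p under 0.05 in edgeR's test, in either direction. The log2 fold changes were small and 76 of the 82 were negative, with a median of -0.15. The 13 mitochondrially encoded genes had a median of -0.27 and 1 call, mt-Nd3 (13361 and 11869 TPM in +E+N and 9238 and 8833 TPM in -E, -0.60 ± 0.07, adjusted p = 0.000722). Cytosolic ribosomal protein genes also had a negative median, -0.17 over 82 tested, and the mitochondrial ribosomal proteins a median of -0.09 over 78. In these lists edgeR called 0, with 61 lower and 0 higher and, for the mitochondrial list, 23 lower and 0 higher at an unadjusted p under 0.05, and DESeq2 called 0 and 0 and limma 0 and 0.

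Single enzymes fell far more. In glycolysis and pyruvate entry 4 of 33 fell and 1 rose. Beside Ldhb, Pfkp, the platelet type phosphofructokinase, was at 38.4 and 43.6 TPM in +E+N and 13.5 and 14.2 TPM in -E (-1.65 ± 0.09, adjusted p = 2.22e-05) and Hk1, hexokinase, at 13.9 and 15.5 TPM in +E+N and 6.8 and 7.41 TPM in -E (-1.15 ± 0.07, adjusted p = 2.51e-05). Neither gene overlapped between groups. Pdk1, the kinase that shuts pyruvate dehydrogenase, fell (-0.76 ± 0.10), and Pfkfb3 rose (0.70 ± 0.09). Ldha, the other main lactate dehydrogenase gene, was at 1211 and 1152 TPM in +E+N and 1534 and 1465 TPM in -E (0.22 ± 0.07, adjusted p = 0.0514) and was not called. Of 25 tricarboxylic acid cycle genes, Idh2 (33.5 and 32.2 TPM to 15.9 and 18.7 TPM, -1.04 ± 0.13) and Pck2 (12.9 and 9.59 TPM to 3.28 and 2.65 TPM, -2.07 ± 0.22), mitochondrial enzymes both, fell. Fatty acid oxidation had Cpt1a (-0.92 ± 0.14), which admits fatty acids to mitochondria, and Acaa2 (-0.69 ± 0.12) lower among 24.

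The metabolic list with the highest share of calls was serine, glycine, threonine and folate-dependent carbon metabolism, in which 6 of 23 members were called, all lower, with a median of -0.45. Psat1, of serine synthesis, was at 192 and 224 TPM in +E+N and 95.6 and 102 TPM in -E (-1.18 ± 0.17, adjusted p = 0.00177). Shmt2, the mitochondrial enzyme that splits serine to glycine, was at 104 and 103 TPM in +E+N and 56.9 and 54.7 TPM in -E (-0.98 ± 0.07, adjusted p = 5.43e-05), and Mthfd2, its partner in the folate cycle, at 96.8 and 78.6 TPM in +E+N and 38 and 37.6 TPM in -E (-1.34 ± 0.11, adjusted p = 0.000125). The groups did not overlap in any of the 3. Tdh, threonine dehydrogenase, on which mouse ESCs depend, went from 75.4 and 73 TPM to 44.2 and 42.3 TPM (-0.91 ± 0.07), followed by Gcat (-0.87 ± 0.14) and Psph. The integrated stress response, whose TF Atf4 controls many of these enzymes, had 4 of 20 called, all lower, and 7 members with log2 fold changes above 0. Atf4 was at 211 and 205 TPM in +E+N and 132 and 143 TPM in -E (-0.73 ± 0.08, adjusted p = 0.000393), and its targets Trib3 (26.4 and 21.1 TPM to 6.82 and 7.14 TPM, -1.87 ± 0.15), Chac1 (15.5 and 12 TPM to 3.58 and 4.41 TPM, -1.91 ± 0.23) and Asns (132 and 143 TPM to 61.3 and 69.5 TPM, -1.17 ± 0.13) fell too. Ddit3, the other TF of that response, was at 17.9 and 14.8 TPM in +E+N and 13.4 and 17.4 TPM in -E (adjusted p = 0.368) and was not called. Of 48 glutathione and oxidative stress genes, Gpx4, Nqo1 (-0.67 ± 0.10), Gsta3 and Txnrd3 fell and Txnip rose (0.77 ± 0.06).

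**Figure D4:**
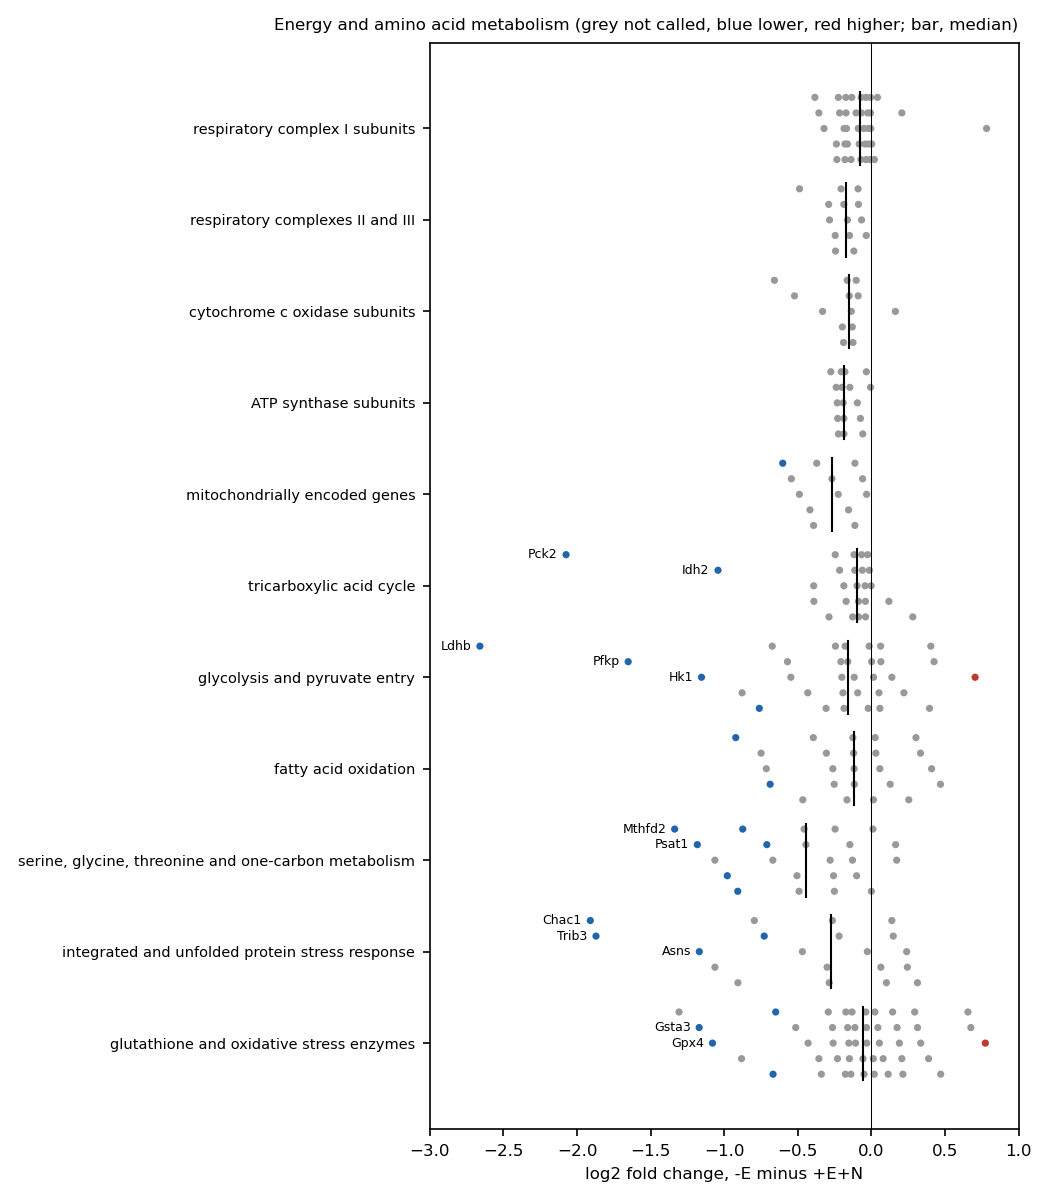
Log2 fold change (-E minus +E+N) of each tested member of 11 metabolic and stress lists, with a bar at each list's median. Most subunits of the respiratory chain sit just below 0, between -0.66 and 0.78, while single enzymes such as Ldhb (-2.66), Pck2 (-2.07) and Psat1 (-1.18) lie far to the left.

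Chromatin and cell cycle lists held calls in both directions. Of 20 DNA methylation and Tet genes, Tet1 (93 and 112 TPM to 70.1 and 66.5 TPM, -0.63 ± 0.11) and Tet2 fell and Mbd2 and Gadd45g rose. Of 32 Polycomb genes, Bmi1 (0.86 ± 0.12) and Kdm2b (0.61 ± 0.06) rose and Phf19 fell (-1.21 ± 0.11). Imprinted genes had 7 rises and 1 fall among 56, with Cdkn1c, a Cdk inhibitor, from 81.2 and 93.2 TPM to 159 and 196 TPM (0.88 ± 0.15, adjusted p = 0.00464), Dlk1, Gatm (1.83 ± 0.16), Magel2 and the adjacent pair Peg3 and Usp29. Among 35 cyclins, Cdks and inhibitors, Ccnd2 (1.05 ± 0.16), Cdkn1a (0.92 ± 0.18) and Cdkn1c rose and Ccnd3 (-0.88 ± 0.08), E2f2 (-1.15 ± 0.12) and Cdkn1b fell. Of 26 p53 response genes, Perp, Trp53inp1, Cdkn1a and Apaf1 rose and Gdf15 fell, with Cdkn1a at 28 and 51 TPM in +E+N and 75.6 and 83.4 TPM in -E and Trp53inp1 at 48.5 and 78.1 TPM in +E+N and 136 and 137 TPM in -E. In both genes replicate 2 of +E+N stood nearer to -E than replicate 1 did. Of 13 Myc family genes Mycl rose (0.82 ± 0.10), Myc itself being at 23.5 and 17.1 TPM in +E+N and 22.8 and 22.1 TPM in -E. Lin28b (0.61 ± 0.08) and Hmga2 (0.63 ± 0.11), both let-7 targets, rose in a list of 19.

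Genes of the 2-cell stage had the highest list median, 1.26 over 21 tested, with 4 called, all higher, but the libraries were uneven. The summed level of the list was 52.7 and 87 TPM in +E+N and 136 and 236 TPM in -E. The Zscan4 genes, such as Zscan4f (10.6 and 18.6 TPM in +E+N and 27.2 and 45.6 TPM in -E, adjusted p = 0.0341), were not called. Zscan4f was called when the replicate number was added to the fit as a block, at a log2 fold change of 1.13. At an unadjusted p under 0.05 in edgeR's test, 19 of the 21 were higher and 0 lower. The called members, Gm4340 and the Usp17l genes Usp17la, Usp17lc and Usp17le, belong to multicopy families between which the estimated counts may be split, so their single values are uncertain. Germline and meiosis genes gave 4 rises (Taf7l, Tex15, Mael and Tdrd1) and 2 falls (Sycp3 and Tuba3a) among 31.

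The same withdrawal of Dox in Nr5a2-null cells (-E-N against -N) was measured in 4 libraries outside the comparison, fitted with it. There 1573 genes (10.1%) were called, 1028 (6.57%) higher and 545 (3.49%) lower, or 677 in all without replicate 2 of -E-N, 988 without replicate 1 of -E-N and 1042 without replicate 1 of -N. Of the 505 genes that rose after Esrrb loss with Nr5a2 present, 429 (85.0%) also rose without it, which is 41.7% of the genes that rose there, and of the 396 that fell, 310 (78.3%) also fell, 56.9% of the falls there. Median log2 fold changes of the 2 sets were 1.12 and -1.08 in Nr5a2-expressing cells and 1.13 and -1.05 in Nr5a2-null cells. A test of the difference between the 2 backgrounds was passed at an adjusted p under 0.01 by 5 genes (0.032% of those tested), Jam2, Nr0b1, Zfp42, Enox1 and Chchd10, all of which fell more without Nr5a2. Nr0b1 was at 30.6 and 24.9 TPM in -N and 0.73 and 0.71 TPM in -E-N, a log2 fold change of -5.38 against -2.66 with Nr5a2 (adjusted p of the difference = 0.00572). Jam2 went from 36.1 and 34.3 TPM in -N to 1.68 and 1.81 TPM in -E-N (-4.64 against -3.32, adjusted p of the difference = 0.00519).

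In 2i/LIF, where Wnt signalling is mimicked by Gsk3 inhibition, the same withdrawal was measured in 3 libraries a group, in a fit of 20 libraries. In that fit 351 genes (2.17% of 16147 tested) were called in 2i/LIF, 106 (0.656%) higher and 245 (1.52%) lower, beside 445 in FCS/LIF, 196 higher and 249 lower. The genes called in FCS/LIF had median log2 fold changes in 2i/LIF of 0.36 for the 505 and -0.38 for the 396. As these genes were chosen by their FCS/LIF values, the medians do not compare the size of the response between media. The same choice can raise the number of them that pass a test of the difference between media, given next. The difference between media was passed at an adjusted p under 0.01 by 171 genes (1.06%), 36 of the 505 and 47 of the 396 among them. That count lay between 31 and 192 when single libraries were left out. Esrrb itself was at 187 to 273 TPM in 3 +E+N libraries and 113 to 133 TPM in 3 -E libraries in 2i/LIF, a log2 fold change on counts of -0.46 (adjusted p = 0.0728), which differed from that in FCS/LIF (adjusted p = 0.00108). Medium and culture batch cannot be told apart. Mymx had a log2 fold change of 0.33 in 2i/LIF against -3.41 in FCS/LIF (adjusted p of the difference = 3.74e-05) and Sp8 one of 0.78 against 2.97 (adjusted p = 0.000606). By contrast Ldhb fell in both media (-3.27 in 2i/LIF), as did Ly6a (-3.22), Nebl (-3.93) and Epha4 (-2.52), with no difference between media called. Ccn1 (-0.66 in 2i/LIF, adjusted p of the difference = 4.45e-05), Psat1 (0.07, 0.00175) and Gpx4 (-0.15, 0.000368) were among those whose response differed.

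**Figure D5:**
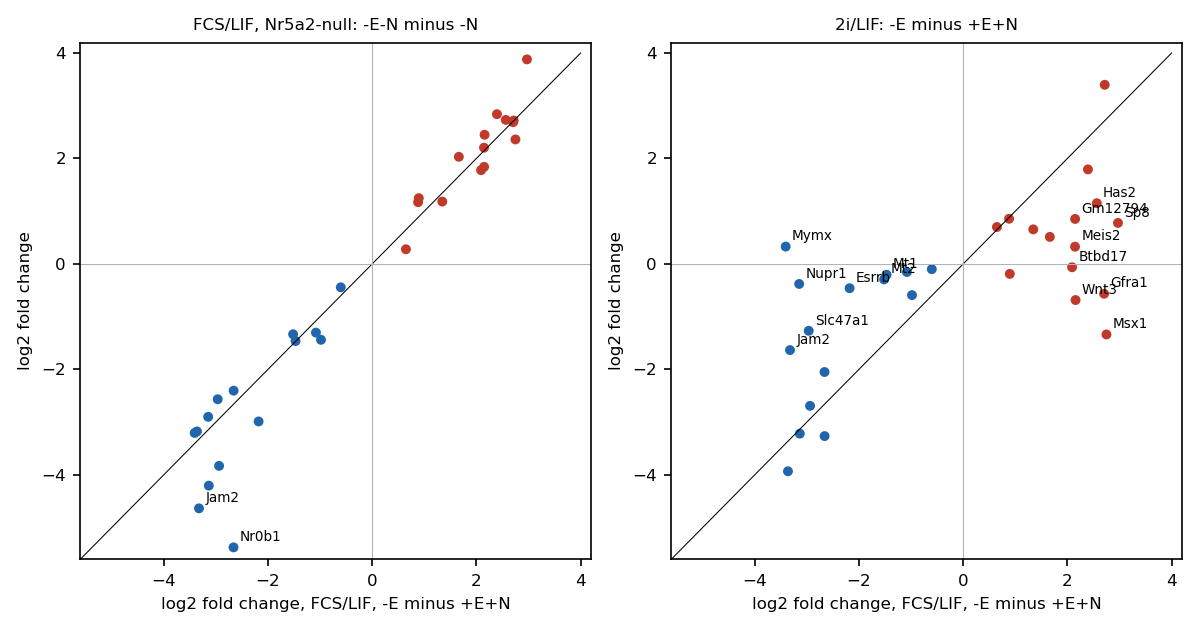
Log2 fold change after Dox withdrawal of the most changed named genes in FCS/LIF (x axis, -E minus +E+N) against Nr5a2-null cells in FCS/LIF (left) and EKOiE cells in 2i/LIF (right), with the diagonal marking equal change and names for genes more than 1.2 from it. Points on the left follow the diagonal, with Nr0b1 furthest below it, and several on the right, such as Mymx (0.33) and Msx1 (-1.34), lie near or beyond 0.

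Promoters were searched for the extended half-site that Esrrb binds, a sequence read by both receptors. RefSeq windows of 300 bases (250 before to 50 after the gene start, GRCm38.p6) were at hand for 284 of the 396 genes called lower, 365 of the 505 called higher and 11279 tested genes. TCAAGGTCA, on either strand, was in 1 window of genes called lower (0.352%), in 1 of genes called higher (0.274%) and in 27 of all tested (0.239%). The variant TCAAGGCCA was in 3 (1.06%), 2 (0.548%) and 43 (0.381%). By the binding data of the study, Esrrb favoured the form with T, and Nr5a2, more strongly, the variant with C in its place. The stretches around the matches in genes that fell are shown so that the sites can be read in context, 10 bases to each side, 5′ to 3′ on the strand that holds the motif, with the motif in capitals.
Tmem191c: gatcaggagtTCAAGGTCAtcctttgcta
Khdc3: ttacctgactTCAAGGCCAatctaatctc
Zfp42: tgactgagtcTCAAGGCCAggcgatcggg
Jakmip1: tctgggtctcTCAAGGCCActgccctctg
They lie at chr16:17276104-17276132, chr9:73102180-73102208, chr8:43307209-43307237 and chr5:37050719-37050747, all upstream of the gene start, 186, 208, 218 and 128 bases before it. Khdc3, of the subcortical maternal complex, went from 15.4 and 13.5 TPM to 3.34 and 2.49 TPM (-2.41 ± 0.28, adjusted p = 0.000591), and Tmem191c from 10.9 and 11.4 TPM to 6.3 and 7.64 TPM (-0.88 ± 0.15, adjusted p = 0.00455). Ldhb, Jam2 and Mymx were not among the genes with a window. The 3 genes with TCAAGGCCA were chosen for display after their values were seen.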

How the data were processed

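Poly-A RNA-seq of mouse ESCs was taken from the tables of the study. The authors aligned reads to mm10 with STAR and quantified genes with RSEM, and deposited estimated counts, held as whole numbers, and TPM values, scaled for transcript length and depth. Spike-in rows, all at 0, were left out.

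A gene was kept where every replicate of any of the 4 FCS/LIF states had 20 counts or more (15636 genes). Counts of the 8 FCS/LIF libraries were scaled by TMM and tested with edgeR 4.0.16 (R 4.3.3) by the quasi-likelihood test, with Benjamini-Hochberg adjustment. The SE is the log2 fold change divided by the square root of F. The media were compared in a fit of 20 libraries. DESeq2 1.42.0, limma 3.58.1 and other filters, normalizations, thresholds and sample sets were alternatives. On data simulated for -E against +E+N (15636 genes), 65 of 100 genes changed 2-fold and 91 of 100 changed 3-fold were called, with 5 unchanged genes called.

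Named were Esrrb and Nr5a2, the 10 largest rises and falls averaging 100 counts or more, the 5 largest gains and losses of TPM, up to 5 called members of each list, members given as not called, and genes with a printed promoter site; further members of lists were named so that each count could be read. The 10 largest rises and falls were taken among called genes whose groups did not overlap in CPM. Members and lists were chosen with earlier results of these data known. Replicates are separate samples per the labels, and a legend of the study calls the FCS/LIF replicates independent experiments. The annotation release behind the counts is not given in the sources used here; names and coordinates are from an mm10 annotation matched by gene ID. Some genes that these rules name are not reported here, though counts include them.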

Additional observations from a re-analysis of the deposited data

Results flagged for a closer look

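Among the genes named, the response to Esrrb loss differed between FCS/LIF and 2i/LIF, by a test of the difference at an adjusted p under 0.01 (edgeR's quasi-likelihood test over 20 libraries). Most of the genes named were chosen by their FCS/LIF values, which are part of that difference. Values are the log2 fold change in FCS/LIF minus that in 2i/LIF. The difference was negative for Mymx (-3.72), Myom2 (-2.59), Notum (-1.95), Esrrb (-1.70), Zfp42 (-1.69), Slc47a1 (-1.68), Jam2 (-1.67), Klf4 (-1.66), Tfcp2l1 (-1.58) and Slc29a3 (-1.48). It was also negative, and smaller, for Mt1 (-1.25), Psat1 (-1.24), Gli2 (-1.22), Mt2 (-1.21), Klf2 (-1.13), Triml2 (-1.05), Dnmt3a (-1.01), Txnrd3 (-0.92), Gpx4 (-0.91), Shmt2 (-0.87) and Asns (-0.75). The difference was positive for Notch2 (0.81), Apaf1 (0.87), Thra (0.90), Bmi1 (0.99), Notch3 (1.01), Tpm1 (1.10), Amotl2 (1.21), Efnb2 (1.45), Tead3 (1.47), Fst (1.52), Meis2 (1.84), Ccn1 (2.01), Sp8 (2.21), Sema3c (2.64) and Gfra1 (3.29). Esrrb is among these genes, so the change of its own gene-level RNA value was not the same in the media. That value does not separate the transgene from the knocked-out locus, and medium and culture batch cannot be told apart.

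The response differed between Nr5a2-null and Nr5a2-expressing cells for Nr0b1 (-2.72), Enox1 (-1.64), Zfp42 (-1.33), Jam2 (-1.31) and Chchd10 (-0.89), given as the log2 fold change without Nr5a2 minus that with it. These genes fell in both backgrounds, each at an adjusted p under 0.01 for the difference, with 2 libraries a group.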

How the results depend on the processing

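The signs of the 901 calls were compared under DESeq2, DESeq2 size factors, the replicate block, other filters, the 4 libraries alone and limma, and all 901 were kept in each. DESeq2 called 852 of the 901. Of the counts, 901 calls became 553 with limma on log2(TPM + 1), 445 with 20 libraries in the fit, 1363 with no fold limit and 1532 at an adjusted p under 0.05. The 505 higher calls became 196 with 20 libraries and 946 at an adjusted p under 0.05. The 396 lower calls became 200 and 202 with limma on log2(TPM + 1) and log2(TPM + 0.1), 249 with 20 libraries and 678 with no fold limit. The 171 genes that differed between media became 532 with DESeq2. The cause of these shifts was not tested, except that a changed limit changes the count by construction. Leaving out single libraries gave 314 to 966 calls, 157 to 554 higher and 157 to 412 lower, 677 to 1682 in Nr5a2-null cells and 31 to 192 between media. Among named genes, 131 lost their call without replicate 2 of -E, 106 without replicate 1 of -E, 90 without replicate 1 of +E+N, 65 without replicate 2 of +E+N and 98 with limma on log2(TPM + 1), which has fewer calls in all. The Esrrb log2 fold change kept its direction and call throughout. Medians of the 75 lists were all counted as the same with DESeq2, DESeq2 size factors and the replicate block. With limma on log2(TPM + 1), 49 of the 75 medians were counted as moved. Without replicate 2 of +E+N 33 moved, and without replicate 1 of +E+N 24 did. Without replicate 1 of -E 15 moved, and without replicate 2 of -E 11 did.

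Deviations of same-numbered libraries were nearly uncorrelated between -E and +E+N (0.036), and nothing in the labels pairs them. The principal component with the most variance in the FCS/LIF libraries (58.1%) nevertheless placed replicate 2 above replicate 1 in every state. The scores went from -45.8 to -37.7 for +E+N and from 8.09 to 16.6 for -E. With Nr5a2 disrupted they went from -24.7 to -17.8 with Dox, and from 46.7 to 54.7 without Dox. The main fit left out replicate number, and the cause of this shared shift was not tested. With the replicate number as a block, calls were 1296, higher 808, lower 488, in Nr5a2-null cells 2176 and between media 728, and the Esrrb log2 fold change was -2.17.

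Signs turned for genes that were not called. With limma on log2(TPM + 1), Esrra was at 0.041 and Pax6 at 0.10. When single FCS/LIF libraries were left out, the log2 fold change ranged from -0.72 to 0.15 for Gata6, from -0.037 to 0.10 for Stat3, from -0.19 to 0.41 for Myc, from -0.11 to 0.10 for Pax6 and from -0.34 to 0.60 for Col3a1.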

Other observations

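Several further gene groups were measured. Intermediate filament genes held 3 rises among 27 tested, Nes and the neurofilament genes Nefm (1.37 ± 0.18) and Nefl (0.75 ± 0.11), with a median of 0.41. Potassium channels held 3 rises among 48 tested, with Kcnq3 (1.59 ± 0.27) and Kcnj3 (1.21 ± 0.10) among them. Integrins gave 1 rise and 2 falls among 20, the falls being Itgb7 (-1.41 ± 0.21) and Itga9 (-1.39 ± 0.20). In the retinoid list Rdh10, a retinol dehydrogenase, rose (0.64 ± 0.11) and Cyp26a1, which degrades retinoic acid, fell (-1.24 ± 0.25). The cholesterol list had 1 fall among 28, the exporter gene Abca1 (-0.74 ± 0.13), and the interferon list had Oasl2 higher and Oas1a and Ifitm2 lower among 18.

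Called genes that are next to each other among tested genes formed some runs of the same direction. On chromosome 1 the naive factor gene Tfcp2l1, the Hedgehog TF gene Gli2 (-1.59) and the activin chain gene Inhbb (-2.59) fell side by side between mm10 positions 118627945 and 119422248, and on chromosome 8 Triml1, Gm6284, Triml2 and Zfp42 fell between 43129807 and 43306980. On chromosome 17 the antigen-processing genes Tap1, Psmb8 and Tap2 rose. Of 566 genes tested on the X chromosome, 48 (8.48%) were called, 36 higher and 12 lower. These runs were picked after their values were seen and were not tested.

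A pair of genes, named after their values were seen, were near absent in a group. Pvalb, which encodes the calcium buffer parvalbumin, had 100 and 110 counts in +E+N and 3 and 0 in -E, and the processed pseudogene Gm13370 had 0 and 0 in +E+N and 45 and 46 in -E.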
